A study of Mus musculus with 18 samples.

Results

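*Krt8*, *Krt18*, and *Fabp3* are 3 genes whose RNA was far more abundant after 12 days of reprogramming in control cells than in fibroblasts, and less abundant when *Cpsf3* or *Hnrnpul1* had been knocked down. They were selected on these expression values, library by library, in the knockdown dataset, where they are 3 of the 9435 genes that the authors kept in their expression table. None of the 3 is among the 9472 genes kept in the table of the overexpression dataset, and their levels there come from the reads over their exon junctions. The cells were primary mouse embryonic fibroblasts (MEFs) from male embryos of the genotype Collagen-OKSM, M2rtta+, in which doxycycline switches on the reprogramming factors OCT4, KLF4, SOX2, and MYC (OSKM). RNA-seq was done on 18 libraries, 2 per group. The knockdown dataset (12 libraries) comprised non-infected MEFs (NI) without doxycycline at day 0, and MEFs given doxycycline for 12 days after infection with lentiviruses that carried a scrambled shRNA (shSCR) or 1 of 2 shRNAs against *Cpsf3* (shCPSF3#1, shCPSF3#2) or *Hnrnpul1* (shUL1#1, shUL1#2). The overexpression dataset (6 libraries) comprised NI cells of day 0, and MEFs carried to day 12 after infection with a retrovirus that was empty (Empty) or carried a *Tia1* cDNA with a T7 tag (T7-TIA1). The comparisons ask whether these RNA-binding factors alter what OSKM achieves in fibroblasts.

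Keratin 8 and keratin 18, the proteins of *Krt8* and *Krt18*, pair with each other to form the intermediate filaments of simple epithelia, type II with type I. Fibroblasts instead build filaments of vimentin. During reprogramming, fibroblasts lose their mesenchymal program and take up an epithelial one, with E-cadherin junctions and keratin filaments, before and while the pluripotency genes become active. *Fabp3* encodes the heart type of the fatty acid-binding proteins, small cytosolic carriers that bring long-chain fatty acids to the places where they are oxidized. CPSF3 is the endonuclease that cuts pre-mRNAs before polyadenylation, hnRNP UL1 is a nuclear RNA-binding protein, and TIA1 is an RNA-binding protein that regulates alternative splicing and translation.

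The sequences that distinguish the 4 knockdown groups are the sites at which their shRNAs bind. Each site is written here as the mRNA strand in DNA letters, and the capitals mark the 7 bases that pair with bases 2 to 8, the seed, of the guide strand.
shCPSF3#1: ccagcaaaccagtGAATTTAt
shCPSF3#2: cctgctctgaaggTGTTCAAa
shUL1#1: cccgaaagaagcgAAACTATa
shUL1#2: tcagtgcctcaacCGTCTTAt
Each of the 4 sites matched the transcripts of 1 gene, the intended one, in the GENCODE transcripts of GRCm38, and all lie in coding sequence. The sites are in exon 10 and exon 14 of *Cpsf3* and both in exon 10 of *Hnrnpul1*. None of the 4 seed matches occurs in the transcripts of *Krt8*, *Krt18*, or *Fabp3*, and the closest stretch of these transcripts to any of the 4 sites had 8 mismatches over 21 bases. The seed matches are found in 3.22% to 21.02% of 21877 genes.

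Some features of the libraries bear on every value below. The cells of the day 12 groups were sorted for GFP at day 2, plated on irradiated feeder MEFs, and harvested with the feeders by trypsin, whereas NI cells at day 0 had no feeders. In bulk RNA, fewer cells of a type and less RNA per cell cannot be told apart. The labels do not say whether libraries of a group came from separate cultures, so p-values measure only the spread between these libraries, which may be technical. One field of the labels gives day 0 for shUL1#2 and day 12 for the NI cells of the overexpression dataset, while the library titles, used here, give day 12 and day 0. The libraries held 57899300 to 65310300 spliced reads.

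The targeted genes were lower or higher as labelled. *Cpsf3* had a mean of 52.0 scaled CPM (CPM relative to a library size scaled by the authors) with its shRNAs against 102 in shSCR (log2 fold change −0.997, limma adjusted p = 0.0207). *Hnrnpul1* had 61.0 against 171 (−1.52, limma adjusted p = 0.0101). *Tia1* had 1353 spliced RPM (reads over its exon junctions relative to all such reads) in T7-TIA1 against 42.2 in Empty (4.95, limma adjusted p = 0.0162), and by scaled CPM its log2 difference was 2.71 (limma adjusted p = 0.222). *Tia1* also rose in the knockdown groups, by 0.36 with shCPSF3 and 0.54 with shUL1 on the log2 scale (limma adjusted p = 0.0335 and 0.0166). Each of 30 fibroblast genes was above 1 spliced RPM in at least 1 NI library of each dataset. All day 12 groups but T7-TIA1 met the same criterion, so it does not set the NI cells apart.

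*Krt8* (ENSMUSG00000049382) and *Krt18* (ENSMUSG00000023043) are neighbors on chromosome 15 of GRCm38. *Krt8* occupies 101996698 to 102004482 on the minus strand and has 9 exons, and *Krt18* occupies 102028180 to 102032027 on the plus strand and has 7 exons. Their start sites face each other across 23697 bases, so that the genes are read in opposite directions. *Fabp3* (ENSMUSG00000028773) lies on chromosome 4, 130308595 to 130315463, on the plus strand, with 4 exons. All are protein coding with 1 annotated transcript in GENCODE M21. Because the keratins moved together, the promoters are shown, from 250 bases before to 50 after the start site that RefSeq gives on GRCm38.p6, with capitals for the letters of motifs that were searched.
Krt8, chr15:102004293-102004592, minus strand: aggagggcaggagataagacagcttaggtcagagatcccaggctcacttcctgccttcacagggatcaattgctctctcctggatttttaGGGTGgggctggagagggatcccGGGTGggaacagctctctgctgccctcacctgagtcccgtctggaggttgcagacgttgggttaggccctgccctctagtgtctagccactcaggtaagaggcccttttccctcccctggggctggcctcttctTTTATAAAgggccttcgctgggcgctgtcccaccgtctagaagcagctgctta
Krt18, chr15:102027966-102028265, plus strand: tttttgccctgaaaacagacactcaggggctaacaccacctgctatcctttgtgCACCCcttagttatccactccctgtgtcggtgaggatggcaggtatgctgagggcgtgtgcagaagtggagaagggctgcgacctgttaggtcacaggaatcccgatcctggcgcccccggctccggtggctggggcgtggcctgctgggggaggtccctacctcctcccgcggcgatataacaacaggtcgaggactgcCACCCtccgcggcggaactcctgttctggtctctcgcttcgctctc
Fabp3, chr4:130308488-130308787, plus strand: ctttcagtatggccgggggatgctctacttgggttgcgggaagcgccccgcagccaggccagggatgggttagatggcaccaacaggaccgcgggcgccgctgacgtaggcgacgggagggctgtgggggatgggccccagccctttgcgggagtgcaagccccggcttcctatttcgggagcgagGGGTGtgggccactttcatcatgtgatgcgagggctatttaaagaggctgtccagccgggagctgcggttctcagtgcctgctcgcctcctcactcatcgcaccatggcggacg
The capitals in *Krt8* are the TATA box TATAAA on both strands, overlapping each other at the RefSeq start site, and CACCC read on the opposite strand at 2 places. *Krt18* has CACCC at 2 places and *Fabp3* at 1 place on the opposite strand. TATAAA occurs on either strand in 14.2% of 27025 RefSeq promoters of the same length and CACCC, the core of sites bound by KLF factors, in 56.7%. The other motifs searched, on both strands, were absent from the 3 windows: GGGCGG (in 35.9% of promoters), CACGTG (7.24%), TGANTCA (7.93%), ATGCAAAT (1.75%), CCGGAAG (9.12%), and the DR1 element of PPAR receptors (0.0444%). The windows of *Krt18* and *Fabp3* held 17 and 22 CpG dinucleotides against a median of 7 over all promoters, and that of *Krt8* held 6. By the GENCODE coordinates above, each of the 3 genes starts within its window but before the RefSeq start. More than the last 50 bases of each window therefore lie inside the gene.

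*Krt8* had 6.48 and 5.04 scaled CPM in the NI libraries and 268 and 146 in the shSCR libraries. With shCPSF3#1 it reached 18.6 and 23.5, with shCPSF3#2 117 and 19.1, with shUL1#1 125 and 36.8, and with shUL1#2 47.7 and 25.4. All 8 knockdown libraries lay above both NI libraries, as for 29.7% of the 9435 genes tested, and below both shSCR libraries, as for 11.6%, but the lowest shSCR library was only 1.17 times the highest knockdown library. As group means, *Krt8* went from 5.76 ± 1.02 in NI (SD, n = 2 for this and every other group) to 207 ± 86.4 in shSCR, and to 21.03 ± 3.48, 68.3 ± 69.5, 80.9 ± 62.3, and 36.5 ± 15.7 in shCPSF3#1, shCPSF3#2, shUL1#1, and shUL1#2. The order of the knockdown groups is not set by these values, because the ranges of shCPSF3#2, shUL1#1, and shUL1#2 overlap.

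*Krt18*, the partner of *Krt8*, had 13.96 and 10.9 scaled CPM in NI and 271 and 152 in shSCR. It reached 13.1 and 18.9 with shCPSF3#1, 88.5 and 20.1 with shCPSF3#2, 95.8 and 30.7 with shUL1#1, and 41.9 and 25.7 with shUL1#2. Again the 8 knockdown libraries were all below both shSCR libraries, as for 11.6% of genes, here with a gap of 1.58 times. Above both NI libraries were 7 of 8, while 29.7% of genes had all 8 above. The exception was replicate 1 of shCPSF3#1, which lay between the NI libraries. The means were 12.4 ± 2.15 in NI, 211 ± 84.2 in shSCR, and 16.0 ± 4.10, 54.3 ± 48.4, 63.3 ± 46.0, and 33.8 ± 11.4 in the knockdown groups in the same order.

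*Fabp3* had 6.02 and 5.002 scaled CPM in NI and the near-equal values of 198 and 197 in shSCR. It reached 11.3 and 18.1 with shCPSF3#1, 31.8 and 44.6 with shCPSF3#2, 23.0 and 39.7 with shUL1#1, and 16.9 and 45.8 with shUL1#2. Here the groups were far apart: the lowest shSCR library was 4.31 times the highest knockdown library, and all 8 knockdown libraries were above both NI libraries (29.7% of genes had this order). The means were 5.51 ± 0.717 in NI, 198 ± 0.384 in shSCR, and 14.7 ± 4.79, 38.2 ± 9.04, 31.3 ± 11.8, and 31.3 ± 20.4 in the knockdown groups. The libraries of shCPSF3#2, shUL1#1, and shUL1#2 overlapped, as did those of shCPSF3#1 and shUL1#2.

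**Figure D1:**
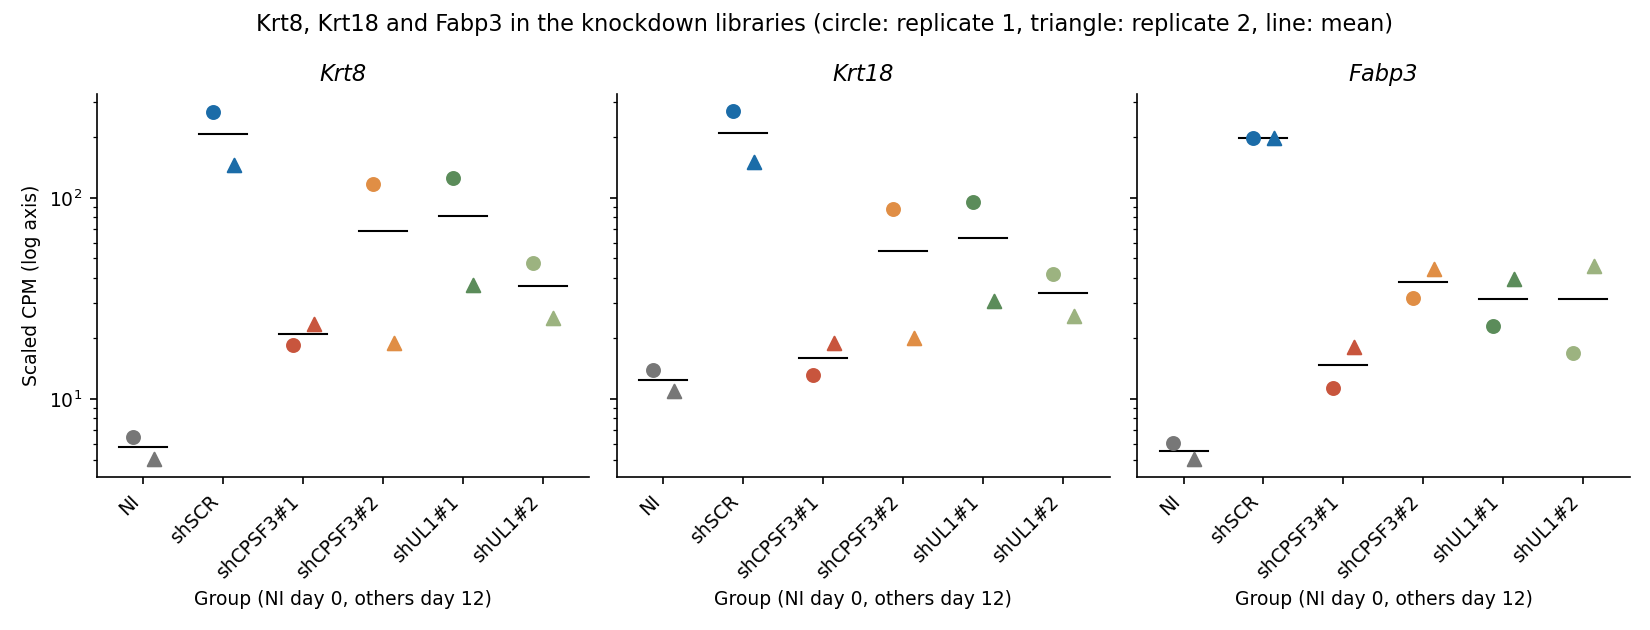
Scaled CPM (log axis) of Krt8, Krt18, and Fabp3 in each library of the 6 knockdown groups; circles are replicate 1, triangles replicate 2, and lines group means. All 8 knockdown libraries lie below both shSCR libraries for each gene, with the widest gap for Fabp3.

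On the scale log2(scaled CPM + 1), shSCR exceeded NI by 4.89 for *Krt8*, 3.93 for *Krt18*, and 4.94 for *Fabp3*, which were the 24th, 70th, and 23rd highest of the 9435 differences. The mean of both shCPSF3 shRNAs differed from shSCR by −2.61, −2.92, and −3.03, the 5th, 3rd, and 2nd lowest values, and that of both shUL1 shRNAs by −2.0, −2.23, and −2.72, the 6th, 3rd, and lowest values. These values chose the genes, and no test is given for them. Over all genes, 44.5% passed limma in shSCR against NI, 26.1% in shCPSF3 against shSCR, and 10.5% in shUL1 against shSCR, and 11.6% had all 8 knockdown libraries below both shSCR libraries. The comparisons of shCPSF3 and of shUL1 share the shSCR libraries, so a high or low value there moves both.

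As group means of 2 libraries, the levels were lower with shCPSF3#1 than with shCPSF3#2, a difference that was not tested. With shCPSF3#1, the mean of *Krt18* was 7.57% of the shSCR mean, that of *Krt8* 10.2%, and that of *Fabp3* 7.43%. With shCPSF3#2 these were 25.7%, 33.0%, and 19.3%. Both libraries of shCPSF3#1 were below both of shCPSF3#2 for *Fabp3* and *Krt18* (for *Krt18* by only 18.9 against 20.1 scaled CPM), whereas for *Krt8* the shCPSF3#1 value of replicate 2 exceeded that of shCPSF3#2. How many of all genes had this order was not counted. Other induced genes also rose less with shCPSF3#1 than with shCPSF3#2, as their medians below show. With shUL1#1, *Krt8*, *Krt18*, and *Fabp3* were at 39.0%, 29.95%, and 15.8% of shSCR, and with shUL1#2 at 17.6%, 16.0%, and 15.9%. For *Fabp3* the levels with both shUL1 shRNAs were thus nearly equal.

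The same pattern was seen in reads over exon junctions, which give a level for genes absent from the expression tables. For each gene, reads over its annotated exon-exon junctions were expressed as spliced RPM, relative to all such reads of the library. In shSCR, *Krt8* had 301 and 159 spliced RPM, *Krt18* 337 and 181, and *Fabp3* 382 and 368, while NI had 7.08 and 5.48, 16.1 and 12.7, and 10.5 and 8.25. For each gene both shSCR libraries were above both NI libraries, an order that 48.8% of genes had. The knockdown libraries ranged from 19.1 to 138 for *Krt8*, 14.9 to 117 for *Krt18*, and 19.5 to 88.4 for *Fabp3*. Levels of different genes can be compared per junction, of which *Krt8* has 8, *Krt18* 6, and *Fabp3* 3. Per junction, *Krt8* in NI was at 0.324 to 0.330 of *Krt18*, and in the 10 libraries of day 12 at 0.653 to 0.962. In all libraries of both datasets *Krt18* was the more abundant keratin, and in every knockdown library but replicate 2 of shCPSF3#2 the ratio exceeded that in both shSCR libraries (0.656 and 0.672). *Fabp3* per junction was at 123 and 127 in shSCR, above both keratins (19.8 to 56.1).

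Part of a lower level at day 12 is shared by many genes, so each gene's level was set against the genes induced in parallel. The share of the induction is the difference to NI with a shRNA, over that in shSCR, on the scale log2(spliced RPM + 1). The reference was 919 genes at least 4 times higher in Empty than in NI in the overexpression dataset. They were also at least 2 times higher in shSCR than in NI in the knockdown dataset. This second condition uses the shSCR and NI libraries that also set the share, while no shRNA library entered the choice. Their median share was 47.3% with shCPSF3#1, 77.8% with shCPSF3#2, 76.8% with shUL1#1, and 76.2% with shUL1#2. *Krt18* reached 9.39%, 44.8%, 53.8%, and 35.7%, and from 2.18% to 9.68% of the reference genes had a lower share. *Fabp3* reached 27.1%, 54.0%, 49.2%, and 45.9%, with 5.33% to 18.6% of the reference genes lower. *Krt8* reached 35.0%, 59.0%, 69.4%, and 50.8%, with 9.58% to 33.6% lower, so that its share with shCPSF3#1 and shUL1#1 fell between the quartiles of the reference genes. The 3 genes were selected for low shares, and these positions are a description.

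**Figure D2:**
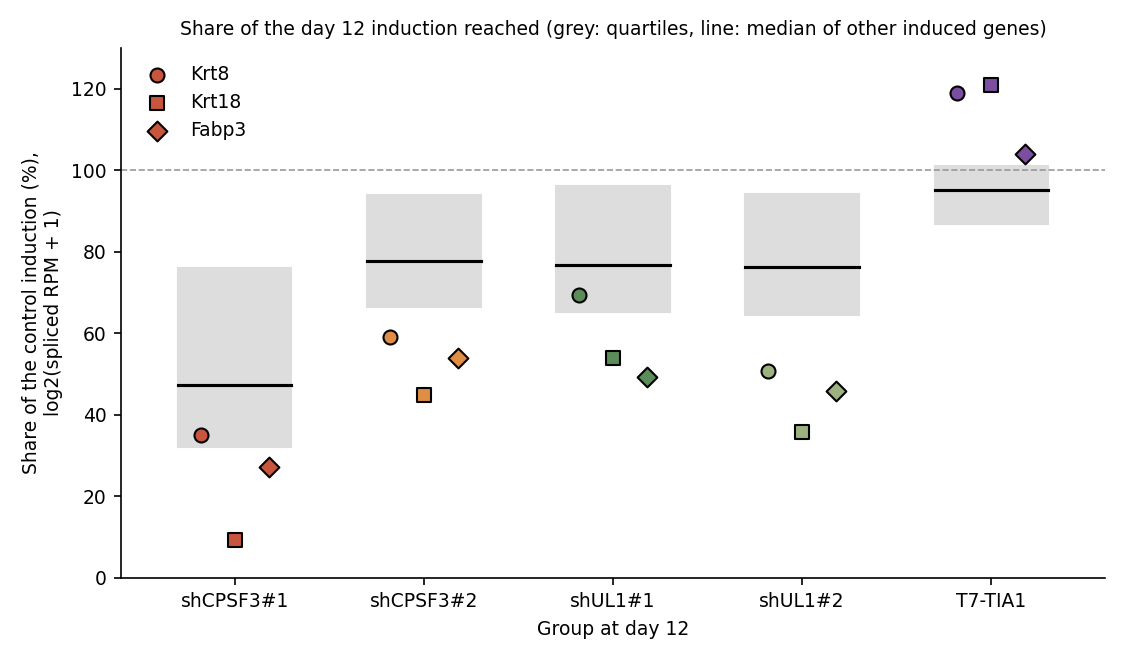
Share of the control induction (%) reached by Krt8, Krt18, and Fabp3 in each group at day 12, against shSCR or, for T7-TIA1, against Empty. Grey boxes span the quartiles and black lines give the median of other induced genes (919 for knockdown, 1054 for T7-TIA1). These rose at least 4-fold in the other dataset and at least 2-fold in the same dataset. Krt18 and Fabp3 lie under the boxes with all 4 shRNAs and all 3 genes lie above the box with T7-TIA1.

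The overexpression dataset gave an induction that the choice of the genes did not use. *Krt8* had 2.58 and 0.424 spliced RPM in NI, 94.3 and 62.7 in Empty, and 226 and 101 in T7-TIA1. *Krt18* had 6.01 and 2.72 in NI, 109.8 and 72.0 in Empty, and 223 and 118 in T7-TIA1. *Fabp3* had 5.996 and 15.0 in NI, 113 and 90.7 in Empty, and 119 and 103.5 in T7-TIA1. For each gene both Empty libraries lay above both NI libraries, as was so for 50.2% of the 12043 genes tested. The rise from NI to Empty was 5.11 on the log2 scale for *Krt8* (standard error 0.563, limma adjusted p = 0.00125), 4.14 for *Krt18* (0.435, limma adjusted p = 0.00107), and 3.27 for *Fabp3* (0.384, limma adjusted p = 0.00154), in a comparison in which 53.1% of genes passed.

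With T7-TIA1 none of the 3 genes had a lower mean than with Empty. Both T7-TIA1 libraries were above both Empty libraries for *Krt8* and *Krt18* (24.7% of genes had this order), while those of *Fabp3* overlapped with Empty. The log2 difference from Empty was 0.96 for *Krt8* (95% interval −0.44 to 2.36, limma adjusted p = 0.947), 0.86 for *Krt18* (−0.22 to 1.95, limma adjusted p = 0.934), and 0.13 for *Fabp3* (−0.82 to 1.09, limma adjusted p = 0.989). None passed the test, and the intervals allow a keratin level up to several times that of Empty. One gene of the 12043, *Tia1* itself, passed in this comparison (0.0083%), and 653 had an unadjusted p under 0.05. Within each replicate number the order of T7-TIA1 over Empty was the same for the 3 genes, and without replicate 2 of Empty the *Fabp3* difference was −0.03. The datasets were tabulated and scaled apart, and a difference between the effects of T7-TIA1 and of the shRNAs was not tested.

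**Figure D3:**
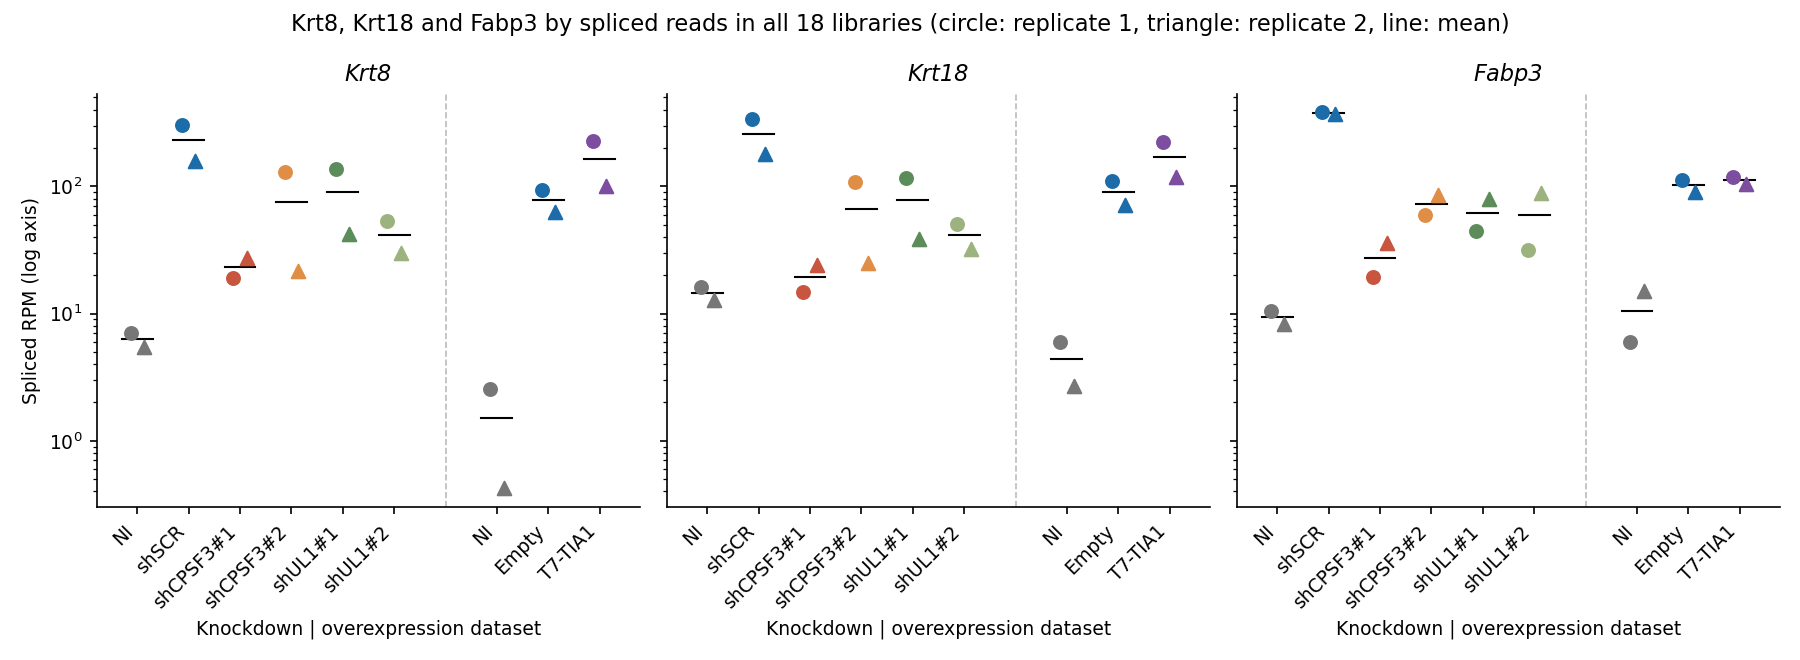
Spliced RPM (log axis) of Krt8, Krt18, and Fabp3 in all 18 libraries, knockdown dataset to the left and overexpression dataset to the right of the dashed line; circles are replicate 1, triangles replicate 2, and lines group means. Both T7-TIA1 libraries lie above both Empty libraries for Krt8 and Krt18 and overlap with them for Fabp3, and all shRNA libraries lie below shSCR.

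Other epithelial genes were compared through a list of 50 genes of junctions, polarity, and epithelial identity that excludes the 3 genes. By spliced reads 41 could be tested in the knockdown dataset. In shSCR against NI 36 rose and none fell, with a median difference of 2.95 over the list and 0.21 over all 12267 genes, of which 43.6% were called and 28.7% rose. The largest rises were those of *Cdh1*, which encodes E-cadherin (7.67), *Epcam*, an epithelial adhesion molecule (7.29), and *Itgb4*, an integrin subunit of hemidesmosomes (5.95). In Empty against NI 37 of 43 rose and none fell (median 3.08 against 0.23 over all genes, 36.4% of which rose), led by *Cdh1* (7.95), *Itgb4* (7.64), and *Epcam* (7.38). The 16 listed genes in the scaled CPM table gave 11 that rose in shSCR and 1, *Cd24a*, that fell by 1.18 on the log2 scale, beside 22.5% and 22% of all genes in that table. In the table of the overexpression dataset 11 were listed, of which 5 rose in Empty and *Cd24a* fell (−0.98), with a median of 0.80, beside 22.8% and 23.6% of all genes. Every gene of that table had at least 5.07 scaled CPM in all 6 libraries, so that genes low in NI are not in it.

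In shCPSF3 against shSCR, 24 of the 41 epithelial genes fell and 1 rose (9.54% and 13.2% of all genes did). Their median difference was −1.46 against −0.01 over all genes, and 40 of 41 had a lower point estimate. The largest falls were those of the tight junction genes *Tjp3* (−2.74) and *Cldn7* (−2.56) and of the simple epithelial keratin *Krt7* (−2.42), and the gene that rose was *Perp* (0.87), a desmosomal gene. In shUL1 against shSCR, 5 of 41 fell and none rose (2.6% and 5.54% of all genes did, 8.14% together), with a median of −0.98 against 0.01 over all genes and 39 of 41 point estimates lower. The 5 were *Elf3*, an epithelial transcription factor (−1.50), the desmosomal plakophilins *Pkp3* (−1.40) and *Pkp2* (−1.10), and the membrane proteases *Prss8* (−1.39) and *St14* (−1.12). In the scaled CPM, 10 of 16 listed genes fell and 1 rose with shCPSF3, with a median of −1.03 (9.35% of all genes fell), and 3 of 16 fell and none rose with shUL1, with a median of −0.75 (3.15% of all genes fell and 7.31% rose). The falls were *Krt19* (−1.93), *Llgl2* (−1.86), and *Pard6b* (−1.77) at most with shCPSF3, and *Llgl2* (−1.39), *Pard6b* (−1.17), and *Pkp2* (−1.09) with shUL1.

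These counts depend on the fit and on single libraries. With only shSCR and shCPSF3 libraries in the fit none of the 41 epithelial genes was called by spliced reads, and with shCPSF3#2 alone 2 were. The 25 calls with shCPSF3 became 10 without replicate 1 and 5 without replicate 2 of shSCR, and 15 without replicate 1 of shCPSF3#2. The 5 calls with shUL1 became 0 without either shSCR library. At day 12 libraries with the same replicate number deviated together from their group means (r of 0.674 to 0.949 across genes by scaled CPM, over the 10 pairs of groups), although the labels do not say what the numbers share. When that number was a block in the fit, calls came to 24 with shUL1 (1 higher and 23 lower), where 1775 of all genes rose and 1579 fell, and 37 with shCPSF3 (1 higher and 36 lower), where 2733 rose and 3032 fell. In T7-TIA1 against Empty none of 43 epithelial genes was called by limma (3 had an unadjusted p under 0.05), and the median was 0.06.

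**Figure D4:**
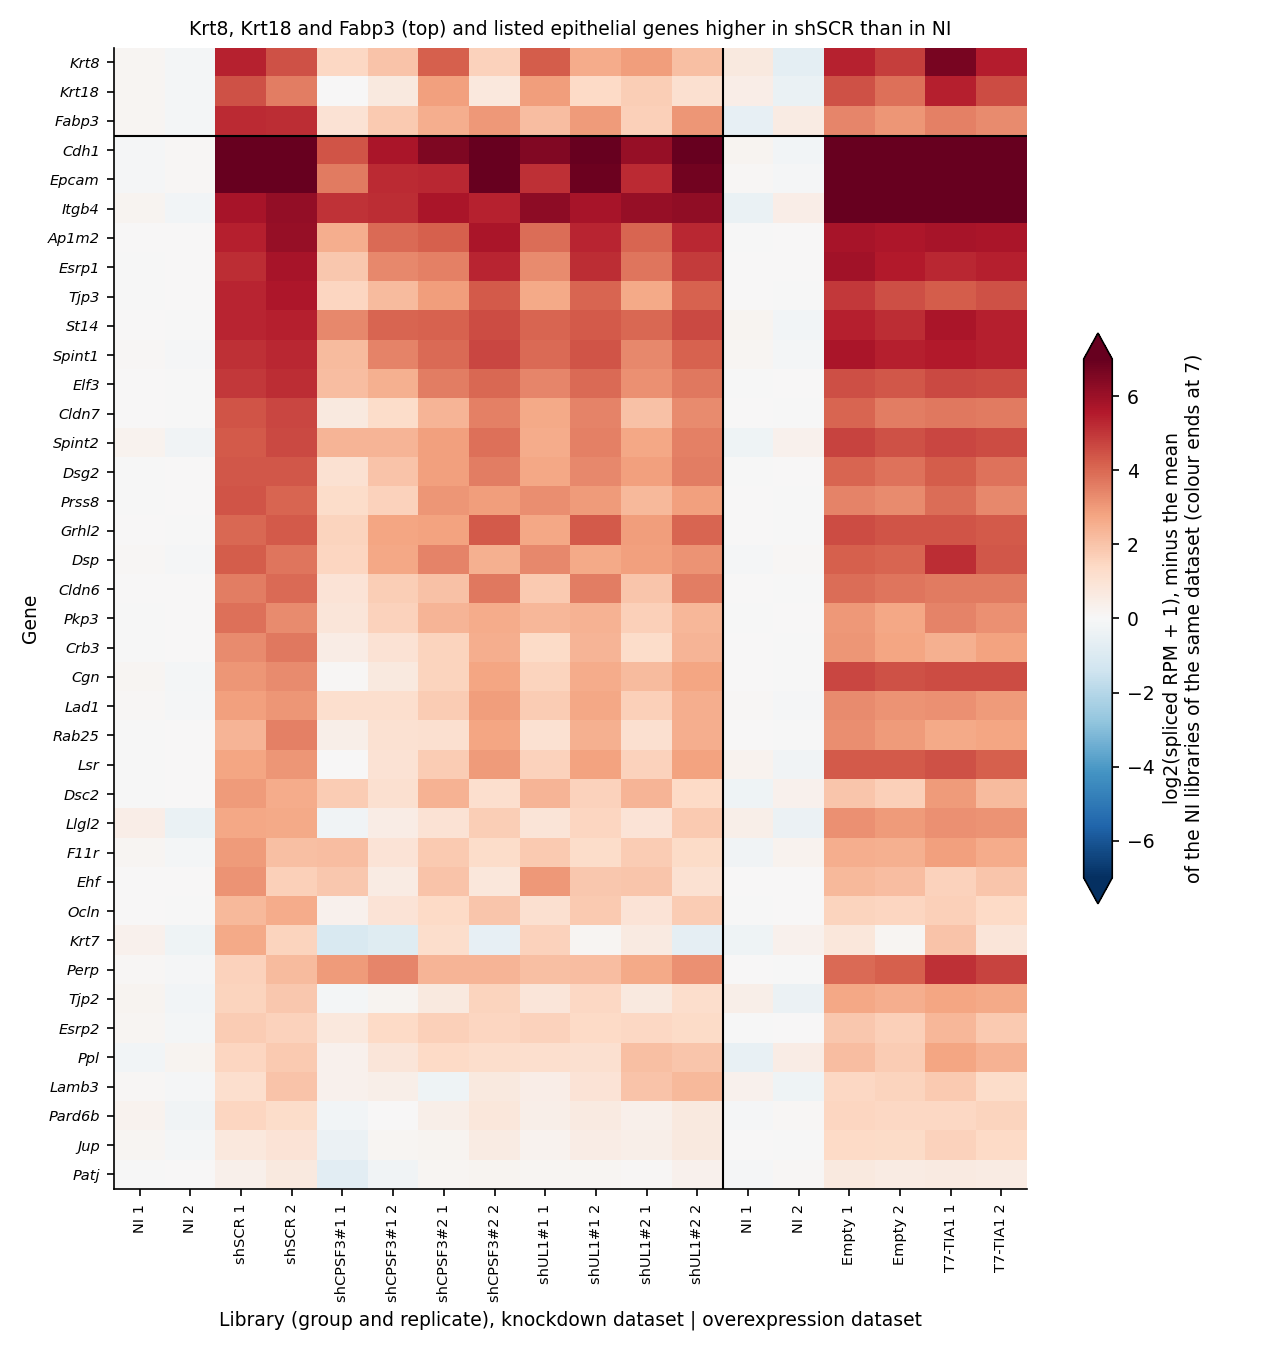
Level of Krt8, Krt18, and Fabp3 (top) and of the 36 epithelial genes called higher in shSCR than in NI, as log2(spliced RPM + 1) minus the mean of the NI libraries of the same dataset, in all 18 libraries; colors end at 7. The genes were chosen for being high in shSCR, which favors paler colors in the other columns, and the NI columns lie near 0 because each value is relative to their mean.

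Set against the 34 epithelial genes that rose at least 2-fold in shSCR, *Krt18* ranked lower than *Krt8*. These genes were kept for being high in the shSCR libraries that also set the share, so the values are a description. The median share of the induction over these genes was 37.3% with shCPSF3#1, 74.1% with shCPSF3#2, 71.5% with shUL1#1, and 71.4% with shUL1#2. The number of the 34 with a smaller share than *Krt18* was 4, 3, 5, and 1, the number smaller than *Fabp3* was 11, 4, 4, and 2, and the number smaller than *Krt8* was 15, 6, 15, and 2. No group was without epithelial genes that had reached a smaller share than each of the 3.

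The keratins and *Cdh1* were both higher in shSCR than in the knockdown group means, but the order of the replicates within groups differed. *Cdh1* had 194 and 301 spliced RPM in shSCR, 23.9 and 61.3 with shCPSF3#1, 108 and 229 with shCPSF3#2, 106 and 209 with shUL1#1, and 80.9 and 188 with shUL1#2. Replicate 2 was therefore the higher in all 5 groups of day 12, as it was for 22 of the 34 epithelial genes. How many of all genes had this order was not counted, and deviations by replicate number were shared across genes, as given above. *Krt8* and *Krt18* were instead higher in replicate 1 in 4 of the 5 groups, the exception being shCPSF3#1. In shCPSF3#2, for example, replicate 1 had 5.99 times as much *Krt8* as replicate 2, and *Cdh1* was higher in replicate 2. *Krt7* followed the keratins (57.5 and 25.8 spliced RPM in shSCR, 20.4 and 5.16 in shCPSF3#2), while *Dsc2*, *Ehf*, and *F11r* were higher in replicate 1 in all 5 groups. *Fabp3* was higher in replicate 2 in all 4 knockdown groups, by 1.43 to 2.82 times, and differed by 1.04 times in shSCR. Across the 10 libraries of day 12, Pearson's r was 0.410 between *Krt8* and *Cdh1*, 0.985 between *Krt8* and *Krt7*, and 0.819 between *Fabp3* and *Cdh1*, as a description of libraries that share groups and replicate numbers.

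**Figure D5:**
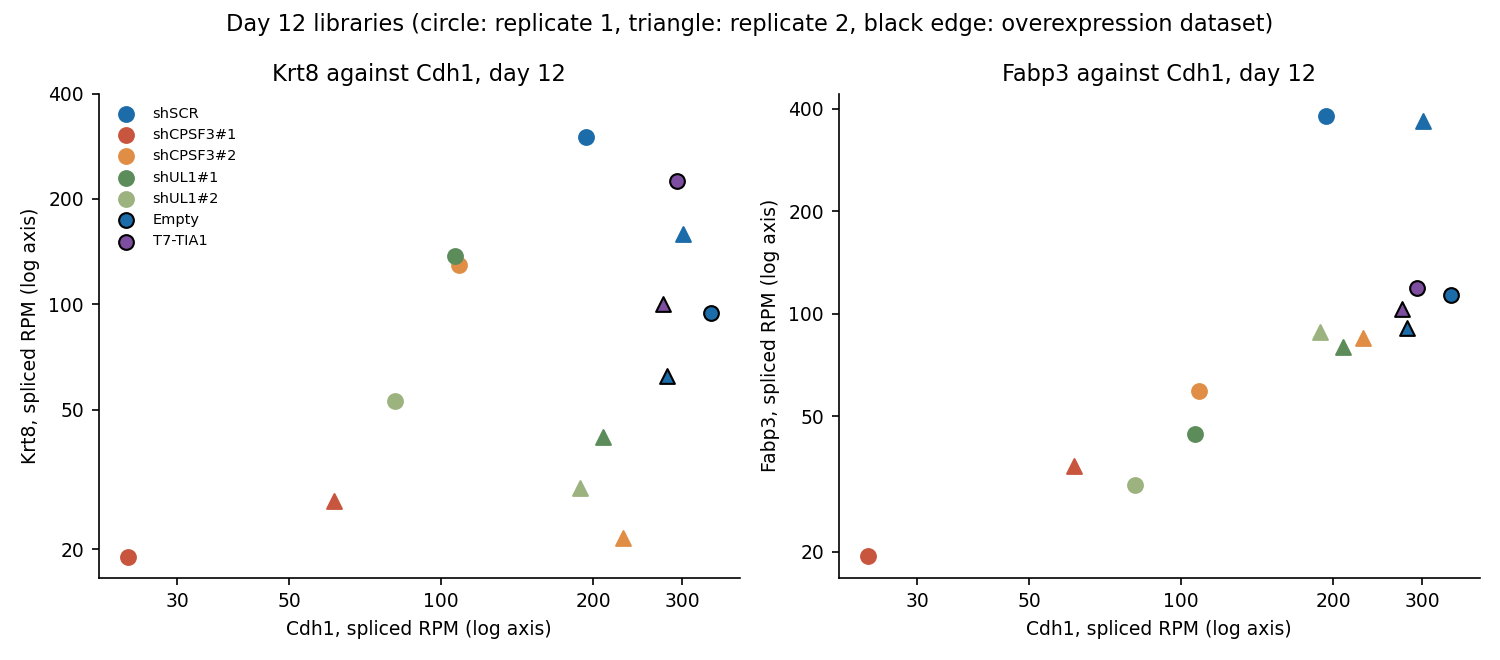
Krt8 (left) and Fabp3 (right) against Cdh1 in the libraries of day 12, all as spliced RPM on log axes; circles are replicate 1, triangles replicate 2, and a black edge marks the overexpression dataset. Within knockdown groups other than shCPSF3#1, Krt8 is higher in the library with less Cdh1, and Fabp3 is higher in the library with more Cdh1.

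Among 24 other genes of intermediate filaments and their linkers, 19 were tested by spliced reads. *Krt7*, *Krt19*, *Dsp*, and *Ppl* are also in the epithelial list, so that their changes are counted in both. *Krt7* is counted again among the trophoblast genes and *Krt19* among the mesothelial genes below. In shSCR 5 rose and 5 fell, beside 28.7% of all genes that rose and 15% that fell. The plakin genes *Dsp* (4.00) and *Ppl* (1.68), the keratins *Krt7* (2.11) and *Krt17* (2.03), and *Tchp* (0.99), which encodes a keratin-binding protein, rose, and *Lmna* (−2.12), *Des* (−1.76), *Nes* (−1.70), *Vim* (−1.69), and *Plec* (−1.14) fell. *Vim*, the fibroblast filament gene, thus moved opposite to the keratins. With shCPSF3, *Krt7* (−2.42), *Krt19* (−1.95), *Dsp* (−1.46), and *Ppl* (−0.73) fell and *Lmna* (1.09) and *Plec* (1.01) rose, beside 9.54% and 13.2% of all genes, with a median over the list of −0.33. These calls depended on the shSCR libraries, the 4 falls on each of them and the 2 rises on replicate 2. With shUL1 none of the 19 was called by limma (5 had an unadjusted p under 0.05), where 8.14% of all genes were, and by scaled CPM *Synm* rose (0.92), 1 of 12 tested beside 7.31% of all genes. In Empty 8 of 21 rose and 5 fell, beside 36.4% and 16.7% of all genes, and none was called with T7-TIA1 (1 unadjusted). *Krt19* had 16.3 to 50.5 spliced RPM in shCPSF3 libraries, against 110 and 80.4 in shSCR and 46.5 and 38.8 in NI.

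Of 14 genes for other fatty acid-, retinoid-, and retinol-binding proteins of the same family, 6 could be tested by spliced reads in the knockdown dataset, and 1, *Crabp2*, rose in shSCR (1.93), where 28.7% of all genes did. None was called with shCPSF3 (0 unadjusted) or shUL1 (1 unadjusted) by limma, in comparisons in which 9.54% and 2.6% of all genes fell, shares at which few or none of 6 genes would be called. The medians were 0.26 and 0.30, while *Fabp3* differed by −3.08 and −2.72. *Crabp2* had 65.6 and 31.4 spliced RPM in shSCR and 70.0 to 219 in the knockdown libraries. *Fabp5* had 249 and 211 in NI, 175 and 115 in shSCR, and 114 to 208 in the knockdown libraries. In Empty against NI, *Crabp1* (−1.78), *Fabp7* (−1.24), and *Fabp5* (−1.003) fell and none rose among 6 tested, beside 16.7% and 36.4% of all genes, and none was called with T7-TIA1 (1 unadjusted).

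Genes for the uptake and oxidation of fatty acids were followed as a list of 42, of which 38 were tested. In shSCR 18 rose and 1 fell, beside 28.7% and 15% of all genes (median 0.56 against 0.21 over all genes), with the largest rises in *Angptl4*, a lipoprotein lipase inhibitor (3.08), the fatty acid transporter *Cd36* (2.92), and the mitochondrial carnitine acyltransferase *Cpt1b* (2.25), and the fall in *Slc27a4* (−0.84). With shCPSF3 4 of 38 rose and 2 fell, beside 13.2% and 9.54% of all genes. *Cd36* (2.78), *Slc27a3* (1.45), and *Cpt1c* (0.62) rose most, and *Cpt1b* (−1.10) and *Acsl3* (−0.63) fell. With shUL1 *Slc27a6* (3.164), *Slc27a3* (1.58), and *Lpl* (1.27) rose and none fell, beside 5.54% and 2.6% of all genes. Without replicate 2 of shSCR no gene of this list was called with either factor, and without replicate 1 none with shUL1. The called falls in this list went no lower than −1.10, and *Cd36*, at 14.2 and 5.29 spliced RPM in shSCR, was at 26.2 to 140 in the knockdown libraries. In Empty 13 of 38 rose and 5 fell, beside 36.4% and 16.7% of all genes, and none was called with T7-TIA1 (2 unadjusted).

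Markers of other cells moved with the knockdowns. The summed level of 30 fibroblast genes was 40407 to 45173 spliced RPM in NI, 18600 to 24529 in shSCR, 57456 to 70137 with shCPSF3#1, 39805 to 61518 with shCPSF3#2, 41617 to 68250 with shUL1#1, and 38743 to 52081 with shUL1#2. Against shSCR 16 of the 30 rose and none fell with shCPSF3 (13.2% and 9.54% of all genes did), led by *Lum* (2.91), *Postn* (2.89), and *Col3a1* (2.53), and 11 rose and none fell with shUL1 (5.54% and 2.6% of all genes did), led by *Postn* (2.704), *Col3a1* (2.51), and *Lum* (2.25). Of 9 measured macrophage genes all were above 1 spliced RPM in every day 12 group of the knockdown dataset, and their sum was 5.64 to 6.60 in NI, 106 to 167 in shSCR, 761 to 1215 with shCPSF3#1, 238 to 626 with shCPSF3#2, 156 to 327 with shUL1#1, and 333 to 537 with shUL1#2. With shCPSF3 6 of 9 rose (13.2% of all genes did), led by *Tyrobp* (2.55), *Ptprc* (2.35), and *Fcer1g* (2.31), and with shUL1 1 rose (5.54% of all genes did), *Ptprc* (1.56). By point estimate 29 of the 30 fibroblast genes were higher with each factor, but the numbers of fibroblast and macrophage calls depended on the libraries in the fit. The 11 fibroblast calls with shUL1 became 0 without replicate 1 of shSCR, when 2 genes were called in all, and 1 without replicate 2, and they became 2 without replicate 1 of shUL1#1 or of shUL1#2 and 5 without either NI library. With shCPSF3 the 16 fibroblast calls became 8 and the 6 macrophage calls 1 without replicate 2 of shSCR, and the *Ptprc* call with shUL1 was lost without either NI or either shSCR library. The feeder cells and these markers were not separated from the reprogrammed cells, and their part in the lower keratin and *Fabp3* levels was not tested.

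Of 30 pluripotency genes, 27 were tested and all 27 rose in shSCR (28.7% of all genes did, and the median was 4.67), led by *Dppa5a* (10.50), *Tdgf1* (8.46), and *Dnmt3l* (7.94). In Empty 28 of 28 rose (36.4% of all genes did). With shCPSF3 5 of 27 fell (9.54% of all genes did), with a median of −1.48 that is near that of the epithelial list, and *Dppa5a* (−2.55), *Tdgf1* (−2.41), and *Tfcp2l1* (−2.21) fell most. The 5 calls became 0 without any 1 of the NI or shSCR libraries or replicate 1 of either shCPSF3 group. With shUL1 none was called by limma (4 had an unadjusted p under 0.05), with a median of −0.81. With T7-TIA1 none of 28 was called (0 unadjusted), and the median was −0.10. The trophoblast is a simple epithelium that carries both keratins, and 9 of 14 trophoblast genes were tested. In shSCR 5 rose, led by *Tfap2c* (4.97), *Plac1* (2.65), and *Hand1* (2.17), and none fell, beside 28.7% and 15% of all genes. *Krt7* (−2.42), *Tfap2c* (−2.13), and *Tead4* (−1.26) fell with shCPSF3, and *Tfap2c* (−1.72) with shUL1, beside 9.54% and 2.6% of all genes. Without either shSCR library 1 trophoblast gene was called with shCPSF3 and 0 with shUL1. The summed trophoblast level was 108 to 146 spliced RPM in shSCR and 19.0 to 68.5 in the knockdown libraries, with *Krt7* among the summed genes. Its part in the keratin levels was not tested.

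The transcripts of the 3 genes showed no splicing difference past the test between groups of day 12. Of 51 annotated events in *Krt8*, *Krt18*, and *Fabp3*, 45 had at least 10 reads in every library of day 12, and the 6 others were all in *Fabp3*. Percent spliced in (PSI), the share of transcripts that retain an intron, include an exon, or use a splice site, stayed within 5 points between group means for all 45. Intron retention was 0% to 3.12% in *Krt8*, 0.15% to 4.65% in *Krt18*, and 0.07% to 1.3% in *Fabp3*, and cassette exons of the keratins had a PSI of 99.3% or more. Of the 33 events of the 3 genes tested, none was called by limma with shCPSF3 (11 had an unadjusted p under 0.05, lowest adjusted p = 0.104, while of all 306367 events 48528 had one and 0.546% were called) or with shUL1 (10 unadjusted, lowest adjusted p = 0.194, while over all events 39167 had one and 0.172% were called). None of 29 was called with T7-TIA1 (1 unadjusted, lowest adjusted p = 0.857, while of 276607 events 15858 had one and 0.00434% were called). A single event can share reads with its neighbors, so that these counts are not independent.

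The genes whose levels followed each of the 3 most closely were named from Pearson's r over the 12 knockdown libraries, on log2(scaled CPM + 1), among the other 9434 genes. For *Krt8* they were *Nrk* (0.965), *Krt18* (0.964), *Slc22a5* (0.955), *Sin3b* (0.941), and *Foxo4* (0.939). For *Krt18* they were *Sin3b* (0.985), *Krt8* (0.964), *Nrk* (0.963), *Peg10* (0.959), and *Cln6* (0.918). For *Fabp3* they were ENSMUSG00000084911 (0.984), *Slc25a36* (0.978), *Gabbr1* (0.9748), *Clybl* (0.974), and *Acp6* (0.973). The keratins were closer to each other than to *Fabp3*, at 0.798 for *Krt8* and 0.805 for *Krt18*. Over the 10 libraries of day 12 alone, *Krt18* was the gene closest to *Krt8* (0.989), and *Krt8* and *Fabp3* had an r of 0.641. These libraries share groups and replicate numbers, and the values describe their order without a test.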

How the data were processed

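RNA-seq libraries were stranded and paired-end. The authors mapped reads to mm10 with *STAR* 2.7.1a and deposited, for each dataset, a gene table made with *edgeR* 3.16.5. Its values are a signal, CPM relative to a library size that the authors scaled, filtered on level and variation. The authors also deposited PSI in percent from *vast-tools*, with the inclusion and exclusion read counts of each event. Groups were taken from the library titles. Expression values, as log2(value + 1), were fitted per dataset over its whole set of groups with limma (version 3.58.1, R 4.3.3) and the trend option, and genes were called at a Benjamini-Hochberg adjusted p under 0.05 over all genes. A fold change on this scale understates that of low genes. The effect of a factor was the mean of its 2 shRNAs minus shSCR. Levels from spliced reads, adopted after the tables were seen to lack the 3 genes in the overexpression dataset, are the reads over annotated exon-exon junctions of a gene in RPM of all such reads (spliced RPM), for genes with a mean of at least 1. Events were tested with robust limma on log2 of inclusion over exclusion counts with 1 read added. All tests are two-sided and were tested on simulated data. The genes, lists, and tests were chosen with earlier results of these data known. Named genes were the 3 genes, the perturbed genes, up to 3 of the largest rises and falls of each list, and the 5 genes closest to each of the 3, and others named were chosen after their values were seen. Depth was 57899300 to 65310300 spliced reads per library, and intervals cover the spread between libraries. Alternatives covered the pseudocount, filters, scaling, the groups fitted, the replicate block, each shRNA alone, and each library left out.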

Additional observations from a re-analysis of the deposited data

How the results depend on the processing

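Of 598 values recomputed under an alternative, 506 were labelled the same, 91 moved, and 1 reversed. Log2 differences were labelled the same when they kept their direction and side of the threshold or stayed within the spread. Counts of called genes were so labelled when they differed from the main count by no more than a fixed ratio, and counts of splicing events when they were equal. The reversed value was the difference of *Fabp3* between T7-TIA1 and Empty, −0.0264 without replicate 2 of Empty, which was not called in either case. The log2 difference of *Fabp3* between shSCR and NI was 5.15 with a pseudocount of 0.1 and 4.27 with 5, and that of *Krt8* was 4.24 with 5. Against shSCR, *Fabp3* was at −3.70 with shCPSF3#1 alone and −2.36 with shCPSF3#2 alone. With only the groups of the contrast in the fit, calls fell to 344 genes and 3 listed epithelial genes for shCPSF3 and to 145 and 1 for shUL1, by spliced reads to 0 epithelial genes for both, and T7-TIA1 gave 2 genes. Alone, shCPSF3#2 gave 501 genes and 1 epithelial gene (2 by spliced reads), shUL1#1 465 genes (2 epithelial by spliced reads), and shUL1#2 588 genes. A filter at 10 spliced RPM left 20, 21, and 3 epithelial calls for shSCR, Empty, and shUL1, with fewer genes tested, and median-of-ratios scaling gave 12 for shUL1. Where no construction of the alternative shows it, the cause was not tested.

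The labels do not say what libraries with the same replicate number share, and the fit reported has no block. Their deviations from the group means correlated across genes at 0.674 to 0.949 between groups of day 12 of the knockdown dataset, at −0.127 to 0.0218 with NI, and at 0.186 between Empty and T7-TIA1. With the replicate block, 4698 genes were called for shCPSF3 and 2768 for shUL1, with 8 epithelial genes by scaled CPM and 24 by spliced reads (1 higher and 23 lower) for shUL1 and 13 and 37 for shCPSF3, and calls of the 3 genes in the overexpression dataset did not change.

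Leaving out each library in turn gave these ranges. In shSCR against NI, the log2 difference was 4.45 to 5.32 for *Krt8*, 3.52 to 4.35 for *Krt18*, and 4.82 to 5.05 for *Fabp3*, and calls were 2613 to 4305 genes by scaled CPM, 3093 to 5436 by spliced reads, 8 to 12 epithelial genes by scaled CPM, and 30 to 35 by spliced reads. In shCPSF3 against shSCR, the log2 difference was −3.25 to −1.97 for *Krt8*, −3.44 to −2.40 for *Krt18*, and −3.19 to −2.87 for *Fabp3*, and calls were 591 to 3225 genes by scaled CPM, 456 to 3440 by spliced reads, 4 to 11 epithelial genes by scaled CPM, and 5 to 30 by spliced reads. In shUL1 against shSCR, the log2 difference was −2.44 to −1.56 for *Krt8*, −2.65 to −1.82 for *Krt18*, and −3.07 to −2.38 for *Fabp3*, and calls were 158 to 1031 genes by scaled CPM, 2 to 1184 by spliced reads, 0 to 4 epithelial genes by scaled CPM, and 0 to 8 by spliced reads. In Empty against NI, the log2 difference was 4.45 to 5.77 for *Krt8*, 3.68 to 4.595 for *Krt18*, and 2.68 to 3.87 for *Fabp3*, and calls were 1473 to 5978 genes by scaled CPM, 3290 to 7977 by spliced reads, 3 to 10 epithelial genes by scaled CPM, and 32 to 41 by spliced reads. In T7-TIA1 against Empty, the log2 difference was 0.38 to 1.54 for *Krt8*, 0.41 to 1.32 for *Krt18*, and −0.0264 to 0.29 for *Fabp3*, and calls were 0 to 2 genes by scaled CPM, 0 to 1 by spliced reads, 0 to 0 epithelial genes by scaled CPM, and 0 to 0 by spliced reads. Calls of splicing events of the 3 genes stayed at 0 throughout. The keratin differences with shCPSF3 moved most without replicate 1 or 2 of shCPSF3#2, and the counts of genes with shCPSF3 and shUL1 were lowest without 1 of the shSCR libraries.

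The planned count test of *edgeR* was not run, because the deposited values are not counts. With 2 libraries per group, a lone library left in a group was assumed to vary like the others. Depth limits listed epithelial genes near 1 spliced RPM more than the 3 genes, which had at least 27 junction reads in every library.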

Other observations

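Genes of other cell types in which keratins or *Fabp3* are usual were measured by spliced reads. Of 6 mesothelial genes, *Upk1b* (−2.89) and *Upk3b* (−2.29) fell in shSCR against NI and both rose with shUL1 against shSCR (2.21 and 2.32), where 15% of all genes fell and 5.54% rose, and *Krt19* fell with shCPSF3 (−1.95), as 9.54% of all genes did. The calls with shUL1 became 0 without replicate 1 and 1 without replicate 2 of shSCR, and that of *Krt19* was lost without either. *Upk1b* had 46.8 and 36.1 spliced RPM with shUL1#2, 5.20 and 5.63 with shUL1#1, 3.02 and 2.14 in shSCR, and 24.1 and 26.7 in NI. *Upk3b* had 31.4 and 13.1 with shUL1#2 and 5.91 and 9.51 in NI, so that both uroplakin genes were highest with shUL1#2. In Empty *Msln* rose (4.38), 1 of 4 tested beside 36.4% of all genes, and no mesothelial gene was called with T7-TIA1 (1 of 4 unadjusted).

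*Fabp3* is a gene of heart and skeletal muscle. Of 8 muscle genes tested in shSCR against NI, *Acta1* (−3.09), *Tnnt2* (−2.84), *Des* (−1.76), and *Tnnc1* (−0.67) fell and *Tnni3* rose (2.71), beside 15% and 28.7% of all genes, and with shCPSF3 *Tnni3* fell (−1.08), as 9.54% of all genes did. Whether *Tnni3* was called with shCPSF3 depended on replicate 2 of shSCR. No muscle gene was called with shUL1 (1 unadjusted). In Empty 3 of 10 rose and 5 fell, beside 36.4% and 16.7% of all genes, and none was called with T7-TIA1 (0 unadjusted). The summed muscle level was 31.3 to 42.3 spliced RPM in shSCR and 16.4 to 52.0 in the knockdown libraries. Of 6 adipocyte genes, *Lpl* rose in shSCR (1.08) and again with shUL1 (1.27), beside 28.7% and 5.54% of all genes, and none was called with shCPSF3 (0 unadjusted), in Empty (1 unadjusted), or with T7-TIA1 (0 unadjusted). Whether *Lpl* was called with shUL1 depended on single libraries. *Fabp4*, the adipocyte relative of *Fabp3*, had 64.3 and 20.7 spliced RPM in shSCR and 13.97 to 236 in the knockdown libraries.

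Of 5 genes of stratified keratinocytes tested, *Trp63* (2.38), *Krt17* (2.03), and *Col17a1* (1.93) rose in shSCR, *Krt17* (2.79), *Col17a1* (1.78), and *Trp63* (1.39) in Empty, and *Col17a1* fell with shCPSF3 (−1.57). Of all genes 28.7% rose in shSCR, 36.4% rose in Empty, and 9.54% fell with shCPSF3. None was called with shUL1 (1 unadjusted) or T7-TIA1 (0 unadjusted). Whether *Col17a1* was called with shCPSF3 depended on replicate 2 of shSCR. Of the endoderm genes, *Lama1* rose in shSCR (4.602) and in Empty (5.40) and *Gata6* fell in shSCR (−1.03, as 15% of all genes did), and none was called by spliced reads with shCPSF3 (3 of 5 unadjusted), shUL1 (3 of 5 unadjusted), or T7-TIA1 (0 of 4 unadjusted). By scaled CPM, where 2 endoderm genes were tested, *Dab2* rose with shCPSF3 (0.75) and with shUL1 (0.79), and *Lama1* fell with shUL1 (−0.86), where 16.7% and 7.31% of all genes in that table rose and 3.15% fell with shUL1. In Empty 7 of 8 macrophage genes and 7 of 11 trophoblast genes rose (36.4% of all genes did) and 20 of 30 fibroblast genes fell (16.7% did), and with T7-TIA1 none of these was called (1, 1, and 7 unadjusted).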
